A study of Mus musculus with 2 samples.

Results

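The interleukin-1 family and its inflammasome were followed as 10 genes across the cell classes of the mouse aorta: the ligands Il1a, Il1b, Il18 and Il33, the antagonist Il1rn, the receptors Il1r1, Il1r2 and Il1rap, the inflammasome sensor Nlrp3 and the protease Casp1. The genes were taken by name, and all 10 of 10 were among the 33696 features of both count matrices. The data are droplet single-cell RNA sequencing of the aorta (10x 3' chemistry), with 1 library titled Kif13b-/- and 1 WT library. Kif13b encodes a kinesin, a motor that moves cargo along microtubules, and the series is titled for efferocytosis, the clearing of dead cells, in atherosclerosis. The labels disagree on that sample, since its name ends in -/- but its genotype entry speaks of a knock down, and it is called Kif13b-/- here. They state neither strain nor age, sex or diet, nor how the allele was made or how many animals went into a library. The design text describes bone-marrow-derived macrophages with apoptotic cells, while the title of the Kif13b-/- sample names the aorta. No genotype was replicated, so there is no test across animals, and the 95% intervals describe counting error alone. A difference between the libraries is therefore a difference between 2 samples and cannot be told apart from a difference between animals or preparations.

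Interleukin-1 alpha and interleukin-1 beta are made as precursors by activated myeloid cells and signal through the receptor Il1r1, which needs the accessory chain Il1rap. The beta form is matured by caspase-1 once a sensor such as NLRP3 has assembled an inflammasome, and it is a driver of inflammation in atherosclerotic arteries. Il1rn blocks Il1r1 by occupying it without signalling, and Il1r2 is a decoy that binds the ligands but lacks the signalling domain. Il18 is a related cytokine matured by the same protease, and Il33 is a nuclear alarmin of stromal and barrier cells.

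The pair of interleukin-1 ligand genes and the pair of receptor genes are each neighbours in the genome. Il1a (ENSMUSG00000027399) lies on the minus strand of chromosome 2 at chr2:129299610-129309972 (mm10) and Il1b (ENSMUSG00000027398) on the same strand at chr2:129364570-129371139, 54597 bases apart. Il1r2 (chr1:40074079-40125231) and Il1r1 (chr1:40225080-40317257) lie on the plus strand, 99848 bases apart. The other members lie apart, Il1rn at chr2:24336853-24351494, Il1rap at chr16:26581704-26730117, Nlrp3 at chr11:59541568-59566956, Casp1 at chr9:5298517-5307265, Il18 at chr9:50554827-50581840 and Il33 at chr19:29925114-29960718, all on the plus strand. The 250 bases before the start are shown for both ligands, because these neighbouring genes were highest in different cell classes, and for Nlrp3 and Il1r2, which of the members with at least 50 UMIs had the largest ratios between the libraries in neutrophil-like cells. They are from the RefSeq table of GRCm38.p6, read 5′ to 3′ on the gene's own strand, at chr2:129309973-129310222 (minus) for Il1a, chr2:129371140-129371389 (minus) for Il1b, chr11:59541319-59541568 (plus) for the first of the starts listed for Nlrp3 and chr1:40085843-40086092 (plus) for Il1r2. Capitals mark letters that match a searched motif.
Il1a: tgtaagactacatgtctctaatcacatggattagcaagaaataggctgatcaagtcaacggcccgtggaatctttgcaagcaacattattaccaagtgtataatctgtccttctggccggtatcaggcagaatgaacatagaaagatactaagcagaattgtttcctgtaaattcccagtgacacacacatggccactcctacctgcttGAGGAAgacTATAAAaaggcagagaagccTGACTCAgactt
Il1b: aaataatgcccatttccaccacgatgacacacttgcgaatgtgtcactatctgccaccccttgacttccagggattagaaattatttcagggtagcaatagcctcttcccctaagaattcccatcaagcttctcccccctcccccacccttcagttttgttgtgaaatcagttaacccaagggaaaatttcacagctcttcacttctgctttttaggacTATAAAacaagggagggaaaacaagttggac
Nlrp3: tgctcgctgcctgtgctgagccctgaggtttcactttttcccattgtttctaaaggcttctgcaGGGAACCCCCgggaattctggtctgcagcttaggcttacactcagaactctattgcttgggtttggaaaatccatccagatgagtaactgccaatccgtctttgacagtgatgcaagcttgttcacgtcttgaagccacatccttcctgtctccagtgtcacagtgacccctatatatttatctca
Il1r2: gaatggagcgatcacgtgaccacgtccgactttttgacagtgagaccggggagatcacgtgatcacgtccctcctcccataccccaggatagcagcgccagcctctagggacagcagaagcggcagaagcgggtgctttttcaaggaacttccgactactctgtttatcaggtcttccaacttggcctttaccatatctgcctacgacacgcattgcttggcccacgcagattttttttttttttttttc
The motifs searched on both strands were TATAAA (the box bound by TBP), TGANTCA (AP-1), GAGGAA (PU.1), TTGCNNAA (C/EBP) and the NF-kB consensus by name. TATAAA began 32 bases before the start of Il1a and 31 bases before that of Il1b. The Il1a window also held TGACTCA, 12 bases before the start, and GAGGAA, 41 bases before it, with no overlap between the matches. The Nlrp3 window held 1 NF-kB match, 186 bases before the start, and the Il1r2 window held no match. Over all 32851 RefSeq promoter windows of the same length, the share with a match was 12.4% for TATAAA, 6.75% for TGANTCA, 23.3% for GAGGAA, 9.56% for TTGCNNAA and 7.25% for the NF-kB consensus. All 10 members were matched in the table, with 15 starts, and the matches are a description of letters, not of binding.

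The Kif13b-/- file held 7766 barcodes and 64455003 unique molecular identifiers (UMIs, each 1 captured transcript), and the WT file 21126 barcodes and 93136569 UMIs, against about 3000 cells targeted and 6000 loaded per library. After filters and removal of the top doublet scores, 6887 Kif13b-/- and 16686 WT barcodes were analysed (median depth 5760 and 2385 UMIs), and 38 barcode sequences occurred in both libraries. Kif13b itself was at 43.8 CPM (UMIs per 1000000) in Kif13b-/- and 70.5 CPM in WT barcodes, and 3' tags outside a deleted part say nothing about the allele. Barcodes were clustered without the 10 members and their pathway genes, so that the levels below did not shape the clusters. 22 of 36 clusters were named from markers, and 10 classes with at least 50 barcodes in each library were compared. The other 14 clusters stayed unnamed and held 41.6% of Kif13b-/- and 27.6% of WT barcodes, among them cluster 23 with 1288 Kif13b-/- and 6 WT barcodes. A cluster mostly of 1 library may be that library and not a cell type.

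The members had different leading classes. In both libraries Il1b, Il1rn and Nlrp3 were highest in neutrophil-like, dendritic cell-like and macrophage-like cells, Il1r2 was highest in dendritic cell-like and neutrophil-like cells, Il1r1 was highest in pericyte-like cells, and Il33 was highest in fibroblast-like cells. Il1rap was highest in neutrophil-like and Schwann or glial-like cells, and Casp1 and Il18 were low throughout, at 32.0 CPM or less in the classes compared.

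**Figure D1:**
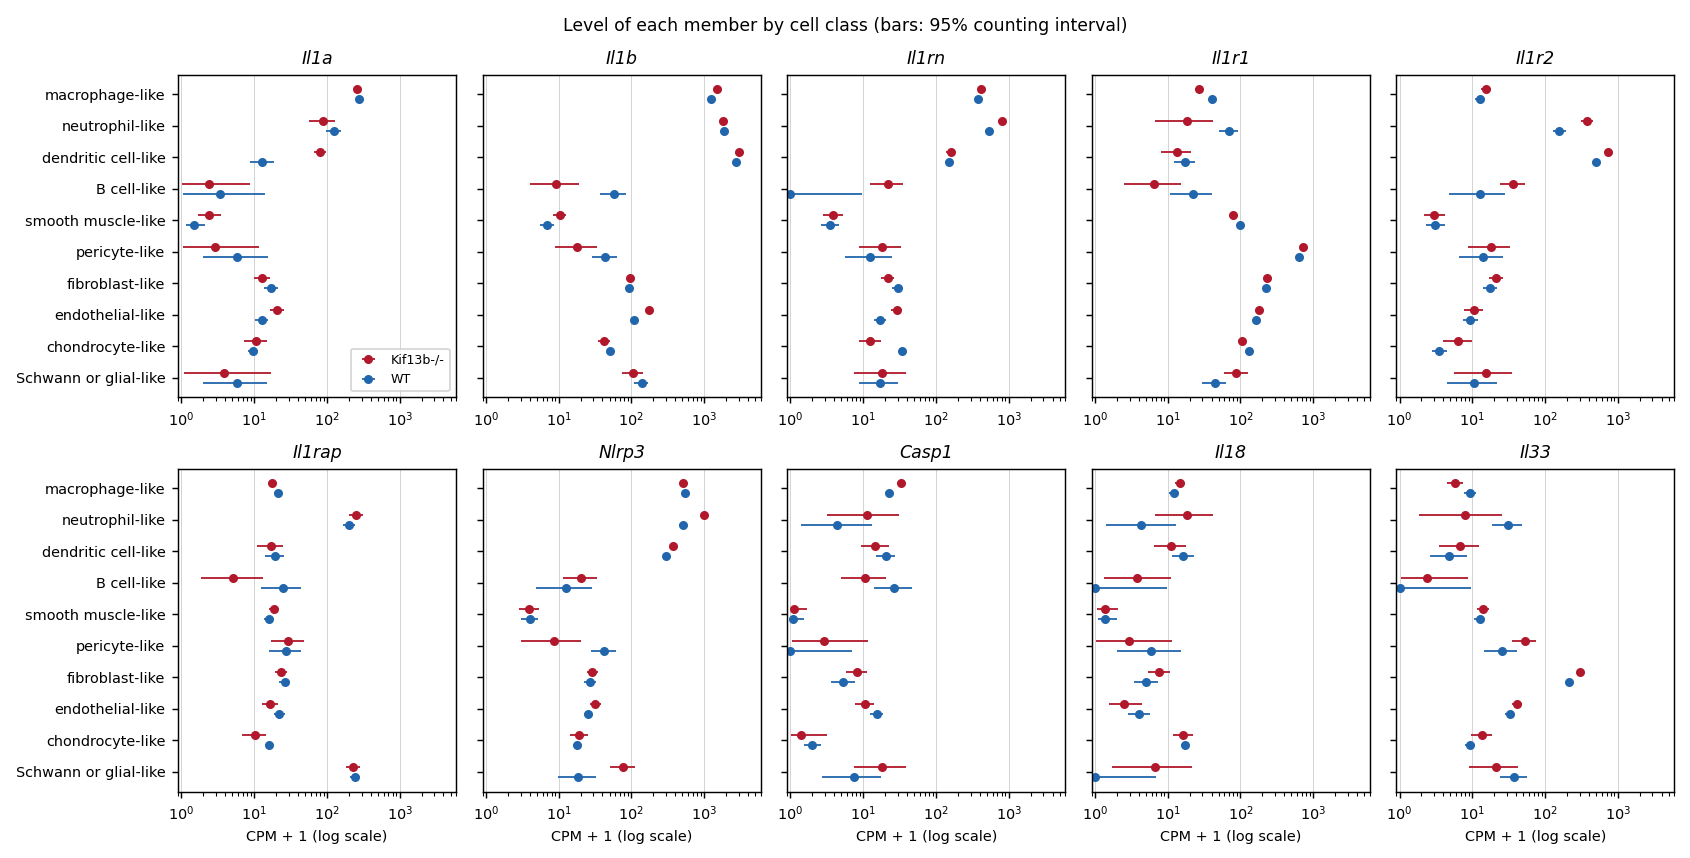
Level of each of the 10 members in the 10 compared cell classes, as CPM + 1 on a log axis, with Kif13b-/- in red above WT in blue and bars for the 95% counting interval (1 library per genotype). Il1b, Il1rn and Nlrp3 lie far to the right in the 3 myeloid classes, Il1r2 in dendritic cell-like and neutrophil-like cells, Il1r1 in the pericyte-like, fibroblast-like and endothelial-like classes, and Il33 in fibroblast-like cells at 298 and 216 CPM.

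Il1b, the secreted ligand whose activity depends on caspase-1, was highest in dendritic cell-like cells, at 3007 CPM in Kif13b-/- (95% counting interval 2916 to 3100) and 2758 CPM in WT (2687 to 2830). Neutrophil-like cells followed, at 1789 CPM in Kif13b-/- and 1879 CPM in WT, and macrophage-like cells came next, at 1486 CPM in Kif13b-/- and 1243 CPM in WT. The counting intervals of these 3 classes did not overlap within either library, and the same order held in both. The order is one of whole classes: neutrophil cluster 34 alone had 3598 CPM in Kif13b-/- and 4724 CPM in WT, above the dendritic cell-like level in both libraries. Below them, endothelial-like cells held 174.6 CPM in Kif13b-/- and 106.9 CPM in WT, and smooth muscle-like cells held 9.34 CPM in Kif13b-/- and 5.88 CPM in WT. Because macrophage-like cells were far more numerous, they held 50.4% of all Il1b UMIs in Kif13b-/- and 57.5% in WT, while dendritic cell-like cells held 15.1% and 22.5%. Unnamed clusters held 27.8% of Il1b UMIs in Kif13b-/- and 6.58% in WT, so the class values leave out more of the Il1b of the Kif13b-/- library.

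Most Il1b UMIs lay in few barcodes. The top 10% of macrophage-like barcodes by Il1b held 79.9% of its UMIs in Kif13b-/- and 81.9% in WT. Barcodes were ranked by raw UMIs, and median depth differed within the class, at 9577 UMIs in cluster 19, 1627.5 in cluster 11 and 1495.5 in cluster 5. The part of depth in these shares was not tested. An Il1b UMI was found in 56.4% of macrophage-like barcodes in Kif13b-/- (median depth 3222 UMIs) and 45.7% in WT (1904 UMIs). At an equal depth of 1000 UMIs, with 131 Kif13b-/- and 449 WT barcodes left out as shallower, the shares were 38.9% and 35.3%. Smooth muscle-like barcodes, which should lack the gene, carried an Il1b UMI in 7.73% in Kif13b-/- (median depth 10362) and 2.90% in WT (5214.5), and in 2.04% and 1.04% at 1000 UMIs. The macrophage-like shares stand well above the smooth muscle-like shares in both libraries. The Il1b ratio of smooth muscle-like cells, 0.67 on the log2 scale (0.16 to 1.18), rests on 75 UMIs in Kif13b-/- and 61 in WT. The source of these UMIs was not tested.

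Il1a, the ligand that is active without caspase-1, was highest in macrophage-like cells, at 260 CPM in Kif13b-/- and 272 CPM in WT, and these held 66.5% and 85.6% of its UMIs. Neutrophil-like cells had 86.3 CPM in Kif13b-/- and 123 CPM in WT. Dendritic cell-like cells, the class with most Il1b, had little Il1a: 78.6 CPM in Kif13b-/- and 12.0 CPM in WT. The Il1a of this class was 109 UMIs in Kif13b-/- and 25 in WT, a log2 ratio of 2.69 (95% counting interval 2.07 to 3.4). Those UMIs sat in 11 of 91 Kif13b-/- barcodes and 13 of 210 WT barcodes, and 1 Kif13b-/- barcode alone held 34. Summed macrophage markers (8 of 8 detected in each library) were at 410 CPM in Kif13b-/- and 417 CPM in WT dendritic cell-like cells. Markers of wall cells differed more, smooth muscle at 446 CPM in Kif13b-/- and 149 CPM in WT, fibroblast at 382 and 179 CPM, pericyte at 133 and 16.8 CPM and lymphatic endothelial at 16.6 and 152 CPM, and T cell markers were at 24.5 and 7.21 CPM. The part of these lists in the Il1a ratio was not tested. The direction held in all 10 of the other settings that gave this class, with log2 ratios of 1.33 to 3.71.

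Across classes the members were next set against the share of all genes that differ between these 2 libraries, since a 1.5-fold ratio is common in thinly covered classes. A member was counted where it had at least 50 UMIs over both libraries. In macrophage-like cells 0 of 10 members were 1.5-fold or more higher in Kif13b-/- and 2 were lower, Il1r1 and Il33, where 2.82% of all genes were higher and 6.30% lower. In neutrophil-like cells 3 of 6 were higher, Il1rn, Il1r2 and Nlrp3, and 0 lower, where 10.4% of genes were higher and 20.6% lower. In dendritic cell-like cells 1 of 8 was higher, Il1a, and 0 lower, where 7.32% of genes were higher and 5.07% lower. In endothelial-like cells 3 of 9 were higher, Il1a, Il1b and Il1rn, and 0 lower, against 4.31% and 5.54% of genes. That class includes cluster 31, with 38 Kif13b-/- and 0 WT barcodes. In chondrocyte-like cells 2 of 9 were higher, Il1r2 and Il33, and 2 lower, Il1rn and Il1rap, against 5.88% and 8.37% of genes.

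The remaining classes gave fewer measured members. Of 5 in smooth muscle-like cells, Il1b was higher and none lower, where 2.59% of genes were higher and 2.73% lower. Of 8 in fibroblast-like cells 0 passed in either direction, where 5.09% of genes were higher and 6.55% lower. Of 3 in Schwann or glial-like cells, Il1r1 was higher and none lower, against 8.65% and 14.9% of genes. Pericyte-like cells had 1 measured member, Il1r1, which passed in neither direction, where 10.9% of genes were higher and 10.1% lower. B cell-like cells had 0 measured members, where 13.6% of genes were higher and 19.5% lower.

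**Figure D2:**
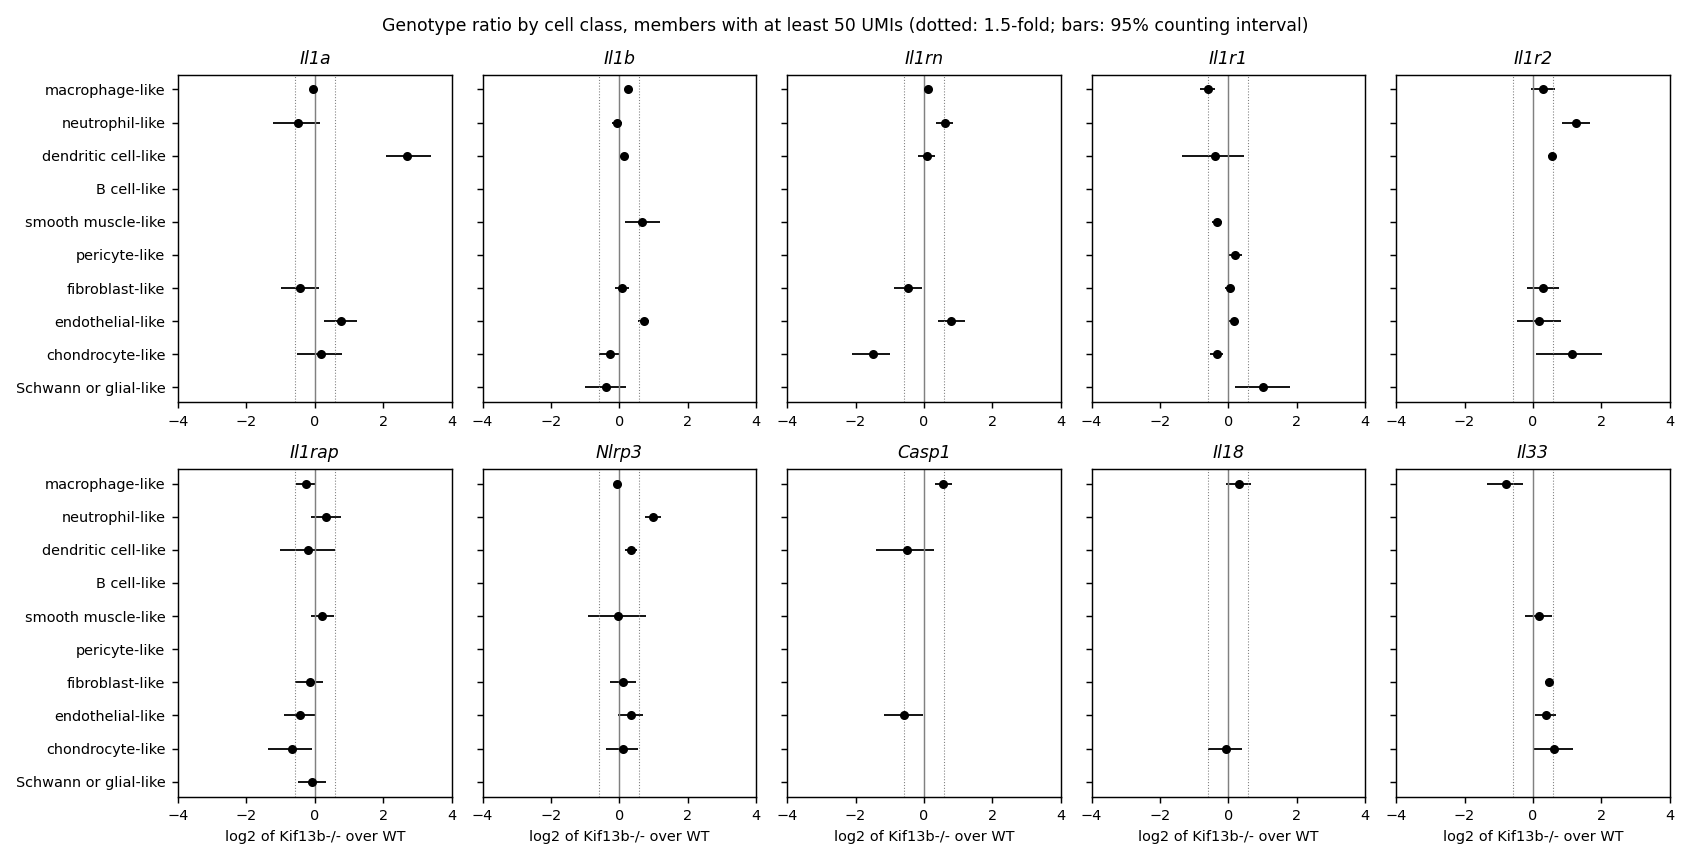
Log2 of the Kif13b-/- over the WT level for each member and class with at least 50 UMIs, with bars for the 95% counting interval and dotted lines at 1.5-fold (1 library per genotype). Points for Il1b stay near 0 in the 3 myeloid classes, Il1r2, Nlrp3 and Il1rn lie to the right in neutrophil-like cells, and Il1a reaches 2.69 in dendritic cell-like cells.

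Within macrophage-like cells the genotype ratios of the ligand and its antagonist were small. The log2 ratio was 0.26 for Il1b (0.22 to 0.29) and 0.11 for Il1rn (0.04 to 0.17). Il1b had 13927 UMIs in Kif13b-/- and 14699 in WT, so counting error was narrow, and the choice of cells mattered more: of 14 other settings, 7 gave a log2 ratio of Il1b below 0, down to -0.32. Different clusters made up the class in the libraries. Cluster 19 held 475 Kif13b-/- and 799 WT barcodes, cluster 11 held 398 and 1612, and cluster 5 held 378 and 228. Il1b was at 1729 CPM in Kif13b-/- and 1522 CPM in WT in cluster 19, at 1047 and 823 CPM in cluster 11, and at 267 and 97.1 CPM in cluster 5. Each cluster was thus higher in Kif13b-/-, and within each library cluster 19 was highest and cluster 5 lowest. Summed smooth muscle markers differed between these clusters (Kif13b-/- and WT). They were at 784 and 541 CPM in cluster 19, 7880 and 7620 CPM in cluster 11, and 7208 and 5182 CPM in cluster 5. Macrophage markers were at 9380 and 8776, 3369 and 3523, and 3336 and 3497 CPM in the same order. Clusters 11 and 5 thus carried more smooth muscle than macrophage marker RNA. Fibroblast markers were at 5603 and 4493 CPM in cluster 11 and 7803 and 7778 CPM in cluster 5. The part of these lists in the levels was not tested.

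**Figure D3:**
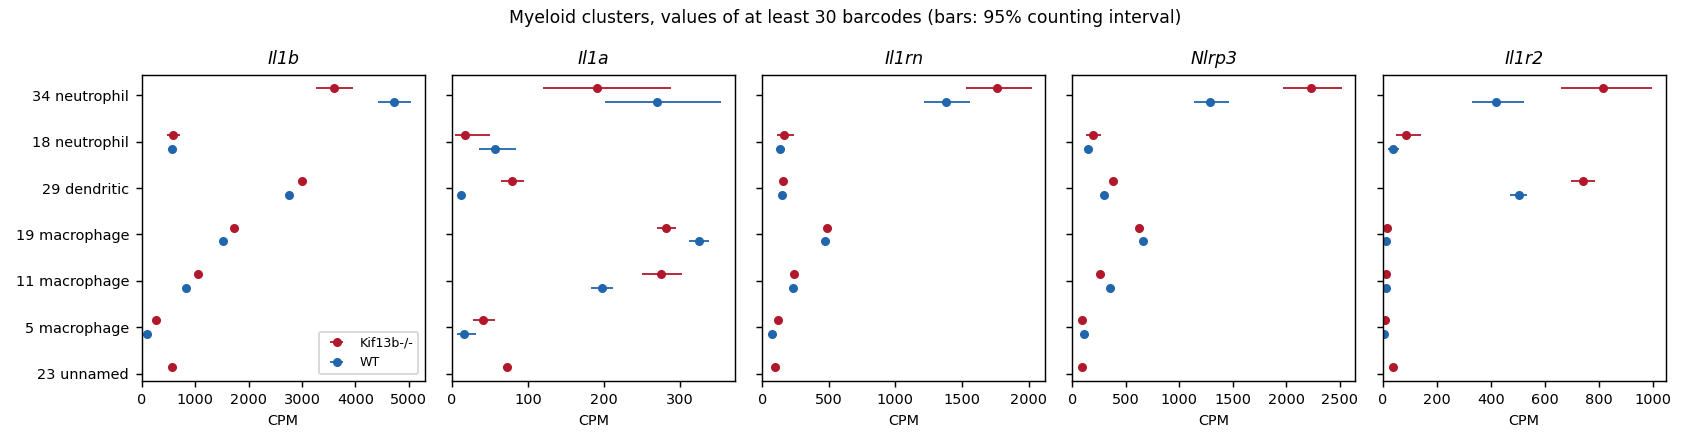
CPM of Il1b, Il1a, Il1rn, Nlrp3 and Il1r2 in the clusters behind the myeloid classes and in the unnamed cluster 23, with Kif13b-/- in red above WT in blue and bars for the 95% counting interval. Values resting on fewer than 30 barcodes are not drawn, so cluster 23 has no WT point. Cluster 34 is farthest to the right for Il1b, Il1rn and Nlrp3.

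Clustering the macrophage-like barcodes again gave 20 sub-clusters, 5 of them with at least 50 barcodes in each library. In 3 of these 5 the marker list raised most was that of another tissue. It was smooth muscle in sub-cluster 0, with Myh11 and Sparcl1 among the leading genes (162 Kif13b-/- and 545 WT barcodes), fibroblast in sub-cluster 3, with Crabp2 and Prg4 (134 and 354), and chondrocyte in sub-cluster 10, with Comp and Fmod (282 and 75). Il1b was highest in a sub-cluster led by Ly6c2, Plac8 and Chil3, genes of inflammatory monocytes, with 167 Kif13b-/- and 356 WT barcodes. There Il1b was at 4511 CPM in Kif13b-/- (4411 to 4612) and 2539 CPM in WT (2480 to 2600), a log2 ratio of 0.83. This sub-cluster held 55.8% of the macrophage-like Il1b UMIs in Kif13b-/- and 47.2% in WT. Its Il1rn was at 986 CPM in Kif13b-/- and 736 CPM in WT, its Il1a at 513 and 381 CPM, and its Nlrp3 at 792 and 724 CPM. In sub-cluster 8, led by Lyz1 and Atp6v0d2, a proton pump subunit, with 241 Kif13b-/- and 290 WT barcodes, Il1b was at 898 CPM in Kif13b-/- and 1086 CPM in WT, and Nlrp3 was at 579 and 667 CPM. In the other 3 Il1b was higher in Kif13b-/-, at 1280 CPM against 861 CPM in WT in sub-cluster 0, at 610 against 460 CPM in sub-cluster 3 and at 462 against 285 CPM in sub-cluster 10. Il1b was thus higher in Kif13b-/- in 4 of 5 sub-clusters and lower in the one led by Lyz1, and the difference between them was not tested.

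The monocyte genes also set apart a class of their own in 4 of the other settings. Il1b in that class was at 4609 CPM in Kif13b-/- and 2487 CPM in WT with barcodes of at least 2000 UMIs, at 4535 and 2471 CPM with at least 5000 UMIs, and at 3856 and 2209 CPM at resolution 2. In the fourth, with the members among the clustering genes, it was at 617 CPM in Kif13b-/- and 769 CPM in WT, over 55 and 160 barcodes. In the 3 settings where the monocyte-like class was higher, the remaining macrophage-like cells gave an Il1b log2 ratio of -0.25, -0.27 and -0.26.

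In neutrophil-like cells the antagonist, the decoy and the sensor were higher in Kif13b-/- while the ligand was not. Il1b was at 1789 CPM in Kif13b-/- and 1879 CPM in WT, a log2 ratio of -0.07 (-0.22 to 0.08). Il1r2 was at 376 CPM in Kif13b-/- and 157 CPM in WT, from 109 and 94 UMIs, a log2 ratio of 1.26 (0.85 to 1.68). Nlrp3 was at 1005 CPM in Kif13b-/- and 506 CPM in WT, a log2 ratio of 0.99 (0.75 to 1.23). Il1rn was at 805 CPM in Kif13b-/- and 527 CPM in WT, a log2 ratio of 0.61 (0.36 to 0.86). The class held 118 Kif13b-/- and 231 WT barcodes.

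RNA of other cells also differed between the libraries in this class. Summed macrophage markers were at 1903 CPM in Kif13b-/- (7 of 8 detected, Fcgr1 at 0) and 289 CPM in WT (8 of 8), and smooth muscle markers were at 1647 and 4465 CPM (8 of 8 in each). In cluster 18, with 74 Kif13b-/- and 147 WT barcodes, macrophage markers were at 2805 and 127 CPM, smooth muscle markers at 2512 and 6335 CPM, and fibroblast markers at 10059 and 7247 CPM. The neutrophil markers themselves were at 33785 CPM in Kif13b-/- and 24359 CPM in WT over the class (8 of 8 in each) and at 14232 and 4562 CPM in cluster 18. In cluster 34, with 44 Kif13b-/- and 84 WT barcodes, macrophage markers were 545 and 639 CPM, smooth muscle markers 346 and 412 CPM, and neutrophil markers 63210 and 67258 CPM. Dendritic cell markers, those of the class with most Il1r2, were at 207 CPM in Kif13b-/- and 55.1 CPM in WT over the class. They were at 264 and 51.2 CPM in cluster 18. In cluster 34 they were at 121 and 63.4 CPM, with 2 of 8 detected in each library. The part of these lists in the ratios of the class and of cluster 34 was not tested. In cluster 34 alone Il1r2 was at 813 CPM in Kif13b-/- and 417 CPM in WT, and Nlrp3 at 2232 and 1289 CPM, so both remained more than 1.5-fold higher there. Il1rn in cluster 34 was at 1764 CPM in Kif13b-/- and 1379 CPM in WT, a log2 ratio of 0.36, under the 1.5-fold line. Il1b in cluster 34 was at 3598 CPM in Kif13b-/- and 4724 CPM in WT, a log2 ratio of -0.39. A call of classes by marker score, without clusters, gave -0.19 for Nlrp3, -0.20 for Il1rn and 0.47 for Il1r2 in neutrophil-like cells. Of 12 other settings, 10 gave a higher Il1rn in Kif13b-/-, but it was past 1.5-fold in 1 of them.

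The antagonist Il1rn was highest in neutrophil-like cells, followed by macrophage-like cells at 410 CPM in Kif13b-/- and 381 CPM in WT, and dendritic cell-like cells at 158 and 149 CPM. Set against its ligand within a library, the myeloid classes differed widely. Macrophage-like cells held 0.276 Il1rn UMIs per Il1b UMI in Kif13b-/- (0.266 to 0.286) and 0.306 in WT (0.296 to 0.317). Dendritic cell-like cells held 0.0525 in Kif13b-/- (0.0456 to 0.0602) and 0.0542 in WT (0.0482 to 0.0607), far less antagonist per ligand than either other myeloid class. Neutrophil-like cells held 0.450 in Kif13b-/- (0.384 to 0.526) and 0.281 in WT (0.247 to 0.318), intervals that do not overlap. In cluster 34 the values were 0.490 in Kif13b-/- and 0.292 in WT, while in cluster 18 they were 0.284 (0.181 to 0.433) and 0.237 (0.173 to 0.319), which overlap. Such a ratio does not depend on total depth, but the 3' ends of different genes may be captured unequally, so its size compares libraries and classes and not molecules.

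Chondrocyte-like cells stood apart in Il1rn. They had 11.5 CPM in Kif13b-/- and 33.0 CPM in WT, from 30 and 487 UMIs, a log2 ratio of -1.50 (-2.10 to -0.99). The balance was 0.278 Il1rn UMIs per Il1b UMI in Kif13b-/- against 0.654 in WT. All 12 other settings gave a negative log2 ratio, from -2.41 to -0.04. The class is made of 2 clusters whose Il1rn values differed in direction, each from few UMIs in Kif13b-/-. In cluster 1, led by cartilage genes such as Cnmd and Col2a1 (120 Kif13b-/- and 908 WT barcodes), Il1rn was at 9.01 CPM in Kif13b-/- and 42.2 CPM in WT (19 and 431 UMIs). In cluster 12, led by Col10a1 and Ibsp (133 and 1056 barcodes), it was at 22.1 CPM in Kif13b-/- and 12.4 CPM in WT. These rest on 11 and 56 UMIs, too few to settle the direction there. Il1b followed the same split, at 13.3 CPM in Kif13b-/- and 53.7 CPM in WT in cluster 1 and at 161 and 43.3 CPM in cluster 12. The balance in cluster 1 was 0.679 in Kif13b-/- and 0.785 in WT, with overlapping intervals. Like Il1rn, the other 3 members past the line in this class rest on few UMIs in Kif13b-/-. Il1r2 was at 5.37 CPM in Kif13b-/- and 2.51 CPM in WT (14 and 37 UMIs), Il1rap at 9.21 and 15.1 CPM (24 and 222 UMIs), and Il33 at 12.7 and 8.34 CPM (33 and 123 UMIs).

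**Figure D4:**
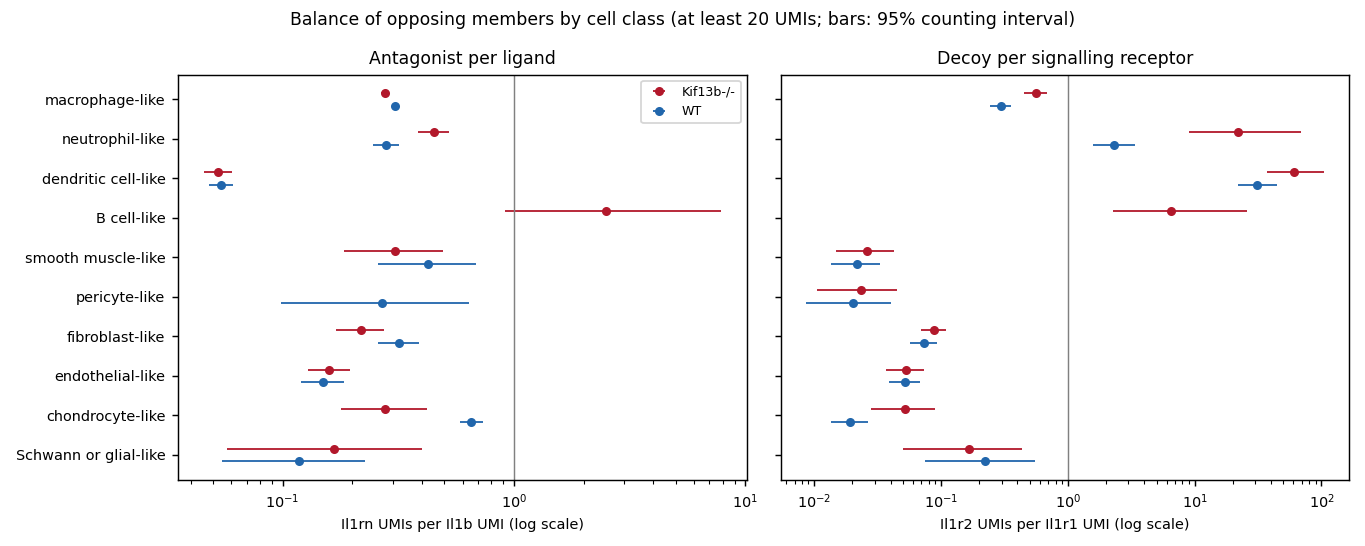
Il1rn UMIs per Il1b UMI (left) and Il1r2 UMIs per Il1r1 UMI (right) in each class with at least 20 UMIs of the pair, on log axes, with Kif13b-/- in red above WT in blue and bars for the 95% counting interval. Of the myeloid classes, dendritic cell-like cells have the least antagonist per ligand, at 0.0525 and 0.0542, and the most decoy per signalling receptor, at 60.2 and 30.7.

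The decoy Il1r2 followed the dendritic cell-like cells, at 738 CPM in Kif13b-/- (694 to 785) and 502 CPM in WT (472 to 533). The ratio was 1.47-fold, just under the line, and its log2 value lay between 0.32 and 0.58 in the 10 other settings. This single class, 1.32% of Kif13b-/- and 1.26% of WT barcodes, held 45.8% of all Il1r2 UMIs in Kif13b-/- and 56.3% in WT. An Il1r2 UMI was present in 83.5% of its barcodes in Kif13b-/- (median depth 15077) and 72.4% in WT (9217.5), and in 41.8% and 28.1% at 1000 UMIs. Smooth muscle-like barcodes had one in 1.33% in Kif13b-/- and 1.12% in WT. Cluster 30, an unnamed and shallower group of 246 Kif13b-/- and 670 WT barcodes with dendritic cell genes among its leading genes, had Il1r2 at 268 CPM in Kif13b-/- and 120 CPM in WT.

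Decoy and signalling receptor were divided between classes. Dendritic cell-like cells held 60.2 Il1r2 UMIs per Il1r1 UMI in Kif13b-/- (37.4 to 104) and 30.7 in WT (21.9 to 44.6). Neutrophil-like cells held 21.8 in Kif13b-/- and 2.29 in WT, the first resting on 5 Il1r1 UMIs. All but 1 of the Il1r1 UMIs of the neutrophil-like class in the libraries together lay in cluster 18, with 4 in Kif13b-/- and 41 in WT, and cluster 34 had 1 in Kif13b-/- and 0 in WT. Macrophage-like cells held 0.557 in Kif13b-/- and 0.296 in WT. Pericyte-like cells held 0.0234 in Kif13b-/- and 0.0203 in WT, and fibroblast-like cells 0.0882 and 0.0736.

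Il1r1, the signalling receptor, was highest in pericyte-like cells, at 732 CPM in Kif13b-/- (661 to 809) and 645 CPM in WT (583 to 712). Fibroblast-like cells followed at 230 CPM in Kif13b-/- and 224 CPM in WT, then endothelial-like cells at 180.0 and 162 CPM. The intervals of these 3 classes did not overlap in either library. Smooth muscle-like cells had 76.9 CPM in Kif13b-/- and 97.8 CPM in WT, and chondrocyte-like cells 103 and 131 CPM. Among these wall classes no ratio reached 1.5-fold.

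Endothelial clusters differed in Il1r1. Cluster 24, led by Ackr1, Selp and Sele, genes of venous endothelium, had 376 CPM in Kif13b-/- and 159 CPM in WT, a log2 ratio of 1.24 (0.97 to 1.52) over 105 and 305 barcodes. Cluster 22, led by Gpihbp1, which anchors lipoprotein lipase in capillaries, had 242 CPM in Kif13b-/- and 255 CPM in WT. Cluster 17, led by Gja5 and Bmx, genes of arterial endothelium, had 66.2 CPM in Kif13b-/- and 87.7 CPM in WT. Cluster 17 thus had the least of the 3 in both libraries, while the cluster with most was 24 in Kif13b-/- and 22 in WT. Over the class, smooth muscle markers were at 4277 CPM in Kif13b-/- and 5235 CPM in WT, fibroblast 4351 and 4026 CPM, endothelial 3711 and 3491 CPM. In cluster 24 fibroblast markers were at 6509 and 7742 CPM, chondrocyte markers at 5481 and 4674 CPM and endothelial markers at 2178 and 2097 CPM. Fibroblast markers were at 1452 and 2228 CPM in cluster 22 and 3685 and 3892 CPM in cluster 17. The part of these lists in Il1r1 was not tested.

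The ligands and the antagonist were low in endothelial-like cells but higher in Kif13b-/-. Il1b had a log2 ratio of 0.71 (0.55 to 0.86), Il1a of 0.75 (0.28 to 1.22), from 77 UMIs in each library, and Il1rn of 0.80 (0.40 to 1.21), from 108 and 104 UMIs. The clusters did not share a direction: Il1b was at 175 CPM in Kif13b-/- and 60.7 CPM in WT in cluster 24, at 151 and 75.9 CPM in cluster 22, and at 113 and 152 CPM in cluster 17. Cluster 31, with 38 Kif13b-/- and 0 WT barcodes, had Il1rn at 119 CPM, and without it the log2 ratio of Il1rn was -0.08. This cluster also held 201 of the 678 Il1b UMIs and 26 of the 77 Il1a UMIs of the class in Kif13b-/-. All 3 ratios past the line in this class thus include a cluster without WT barcodes. Of 13 other settings, 7 put Il1b past 1.5-fold higher in Kif13b-/-, 6 put Il1a and 6 put Il1rn. Macrophage markers (8 of 8 detected in each library) were at 424 CPM in Kif13b-/- and 294 CPM in WT over the class and at 1477 CPM in cluster 31. Cluster 31 also carried fibroblast markers at 11584 CPM and smooth muscle markers at 5265 CPM, above its endothelial markers at 1337 CPM. In cluster 24 macrophage markers were at 89.1 CPM in Kif13b-/- and 403 CPM in WT. They were at 133 and 188 CPM in cluster 22, and at 503 and 333 CPM in cluster 17. Dendritic cell markers were at 86.0 and 81.4 CPM in cluster 24, 74.2 and 68.7 CPM in cluster 22, and 66.9 and 83.9 CPM in cluster 17. Neutrophil markers were at 10.8 and 10.4, 3.67 and 31.2, and 2.88 and 24.8 CPM in the same order. The part of these lists in the Il1b differences was not tested. With barcodes above the class median for smooth muscle, fibroblast, chondrocyte and adipocyte markers left out, the log2 ratio of Il1b was -0.38 and that of Il1rn -0.79. That filter used no macrophage or other immune markers.

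In macrophage-like cells Il1r1 was at 26.2 CPM in Kif13b-/- and 40.0 CPM in WT, a log2 ratio of -0.61 (-0.84 to -0.38). It was negative in 14 of 14 other settings, but reached 1.5-fold in 3 of them. In cluster 19 it was at 13.4 CPM in Kif13b-/- and 20.3 CPM in WT, and in cluster 11 at 74.8 and 76.3 CPM. Sub-clusters 0, 3 and 10, in which markers of another tissue were raised most, held 16.7%, 25.2% and 9.35% of these Il1r1 UMIs in Kif13b-/- and 28.8%, 18.4% and 4.86% in WT. In sub-cluster 8, led by Lyz1, Il1r1 was at 2.60 CPM in Kif13b-/- and 4.16 CPM in WT, and it was lower in Kif13b-/- in sub-clusters 0 (63.5 and 96.2 CPM) and 10 (36.0 and 107 CPM). In sub-cluster 3 it was higher in Kif13b-/-, at 70.0 CPM against 55.1 CPM in WT, and in the sub-cluster with monocyte genes it was at 37.7 and 34.4 CPM. The part of RNA of other cells in the Il1r1 ratio was not tested. Schwann or glial-like cells had 86.8 CPM in Kif13b-/- and 43.4 CPM in WT, from 30 and 27 UMIs, a log2 ratio of 1.00 (0.20 to 1.81). Fibroblast markers were at 7704 CPM in Kif13b-/- and 3648 CPM in WT in that class, pericyte markers at 1946 and 1333 CPM, and macrophage markers at 949 and 310 CPM, while its own Schwann or glial markers were at 1110 and 2180 CPM. The part of these lists was not tested.

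Il1rap, the accessory chain shared by the receptors for interleukin-1 and interleukin-33, was at 252 CPM in Kif13b-/- and 202 CPM in WT in neutrophil-like cells and at 228 and 241 CPM in Schwann or glial-like cells. These did not differ beyond counting error within either library, and the other 8 classes compared were below 30 CPM. In cluster 34 it reached 605 CPM in Kif13b-/- and 544 CPM in WT. The classes with most Il1r1 had little: pericyte-like cells had 28.5 CPM in Kif13b-/- and 26.1 CPM in WT.

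Il33, the alarmin, was highest in fibroblast-like cells, at 298 CPM in Kif13b-/- (281 to 314) and 216 CPM in WT (202 to 230), which held 50.3% and 40.6% of its UMIs. The log2 ratio was 0.46 (0.34 to 0.59), under the line, and stayed positive in all 13 other settings, from 0.13 to 0.56. In cluster 2, led by Pi16 and C7, Il33 was at 300.3 CPM in Kif13b-/- and 247 CPM in WT, and in cluster 3 at 291 and 159 CPM. Cluster 3 carried more macrophage marker RNA, 1070 CPM in Kif13b-/- and 455 CPM in WT against 74.1 and 69.8 CPM in cluster 2. Fibroblast markers in cluster 3 were at 11107 CPM in Kif13b-/- and 7915 CPM in WT (15661 and 12651 CPM over the class), and smooth muscle markers at 7395 and 10106 CPM. The part of these lists in the Il33 ratio was not tested. Pericyte-like cells had 51.3 CPM of Il33 in Kif13b-/- and 24.5 CPM in WT from 27 and 15 UMIs. In macrophage-like cells it was at 4.80 CPM in Kif13b-/- and 8.37 CPM in WT, and 8 of 14 other settings gave the opposite direction.

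Il18 was low in every class compared, with the largest counts in macrophage-like cells, at 13.8 CPM in Kif13b-/- and 11.2 CPM in WT, and chondrocyte-like cells, at 15.4 and 16.2 CPM. The intervals of these 2 classes overlapped in Kif13b-/- but not in WT. Their log2 ratios were 0.30 (-0.06 to 0.66) and -0.06 (-0.60 to 0.41).

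Nlrp3, the sensor, was at 515 CPM in Kif13b-/- (500.2 to 529) and 541 CPM in WT (527 to 554) in macrophage-like cells, a log2 ratio of -0.07. These cells held 67.6% of its UMIs in Kif13b-/- and 76.6% in WT. Dendritic cell-like cells had 375 CPM in Kif13b-/- and 298 CPM in WT. In WT the macrophage-like and neutrophil-like levels overlapped, while in Kif13b-/- the neutrophil-like level was above the macrophage-like one. Casp1 was at 32.0 CPM in Kif13b-/- (28.5 to 35.8) and 21.6 CPM in WT (19.1 to 24.5) in macrophage-like cells, a 1.48-fold ratio just under the line, and 6 of 14 other settings put it past 1.5-fold. In cluster 19 Casp1 was at 39.5 CPM in Kif13b-/- and 26.5 CPM in WT, and in cluster 11 at 10.7 and 12.9 CPM.

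The rest of the pathway was read in macrophage-like cells from lists of known genes. Of 19 inflammasome genes (sensors, adaptor, caspases and pore formers), 17 were measured, and 0 were 1.5-fold higher and 0 lower in Kif13b-/-, with a median log2 ratio of 0.04 beside -0.02 over all 12087 genes. Ninj1, which ruptures the membrane of dying cells, was at 246 CPM in Kif13b-/- and 245 CPM in WT. Pycard, the adaptor ASC, chosen after its values were seen, was at 67.4 CPM in Kif13b-/- and 65.6 CPM in WT. All 18 of 18 genes of the signalling list below the receptors were measured, and 0 passed in either direction (median -0.04). Nfkb1, an NF-kB subunit, was at 859 CPM in Kif13b-/- and 780 CPM in WT.

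Of 18 genes that interleukin-1 is known to induce through NF-kB, 17 were measured, of which 2 were higher and 4 lower in Kif13b-/-, where 2.82% of all genes were higher and 6.30% lower, with a median of -0.10. The chemokine Ccl2 was at 750.2 CPM in Kif13b-/- and 1209 CPM in WT. Lcn2, a siderophore-binding protein, was at 107 CPM in Kif13b-/- and 207 CPM in WT, and the acute-phase gene Saa3 at 42.1 and 109 CPM. Lcn2 is among the leading genes of unnamed cluster 9 (46 Kif13b-/- and 431 WT barcodes) and Saa3 of unnamed cluster 32 (0 and 141). In macrophage-like cells chondrocyte markers were at 149 CPM in Kif13b-/- and 223 CPM in WT and neutrophil markers at 62.1 and 137 CPM, and their part was not tested. Csf3, the granulocyte growth factor, was higher at 8.96 CPM in Kif13b-/- against 4.99 CPM in WT. The last 2 of the 6, named after their values were seen, were Cxcl5 at 5.23 and 1.52 CPM and Sele, an endothelial gene, at 0.854 and 3.72 CPM. Cxcl2, the highest of the list, was at 9520 CPM in Kif13b-/- and 12954 CPM in WT.

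The 3 shorter lists held few measured genes. Of 11 ligands and binding proteins 6 were measured, with 0 higher, 1 lower (Il33) and a median of 0.02, and Il18bp, which neutralises interleukin-18, was at 7.58 CPM in Kif13b-/- and 9.89 CPM in WT. Of 10 receptors 7 were measured, with 0 higher, 3 lower (6.30% of all genes were lower) and a median of -0.25. Besides Il1r1 these were Il1rl1, the receptor for interleukin-33, at 1.17 CPM in Kif13b-/- and 3.80 CPM in WT, and Il1rapl1 at 0.747 and 3.89 CPM. Of 7 proteases that process these ligands 3 were measured and 0 passed (median 0.30), with Capn2 highest at 98.2 CPM in Kif13b-/- and 87.2 CPM in WT.

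The genes most like the members other than Il1rap were sought among 6761 genes, by Pearson's r of log2(CPM + 1) over 20 points (10 classes in 2 libraries, which share libraries and depth). Nlrp3 was most like Lilrb4a and Lilrb4b, related receptors of myeloid cells whose reads may be split between them (r = 0.978 and 0.974), and Slc7a11 (0.967). Il1b was most like Slc7a11, a cystine transporter (0.956), Clec7a, a receptor for fungal glucans (0.95), and Cd300a (0.943). Il1rn was most like Adam8 (0.963), Clec4d (0.951) and Mcl1 (0.943), and Il1r2 most like Relb, an NF-kB subunit (0.917), Plbd1 (0.908) and Nfkbie, an NF-kB inhibitor (0.904). Il1a was most like Hk3 (0.923), Cxcl3 (0.915) and Cstb (0.907), and its r with Il1b was 0.866. Il1r1 was most like C1qtnf1 (0.917), Spry4 (0.913) and Angpt1 (0.906), and Il33 most like Igsf10 (0.873), Fmo1 (0.867) and Lima1 (0.859). For Casp1 the genes were Cd38 (0.922), H2-D1 (0.903) and Il4ra (0.883), and for Il18 Tbxas1 (0.851), Tgfbi (0.835) and Rabgef1 (0.835). Among the members, Il1b and Nlrp3 ran closest (0.934), and Il1r1 ran with Il33 (0.732).

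**Figure D5:**
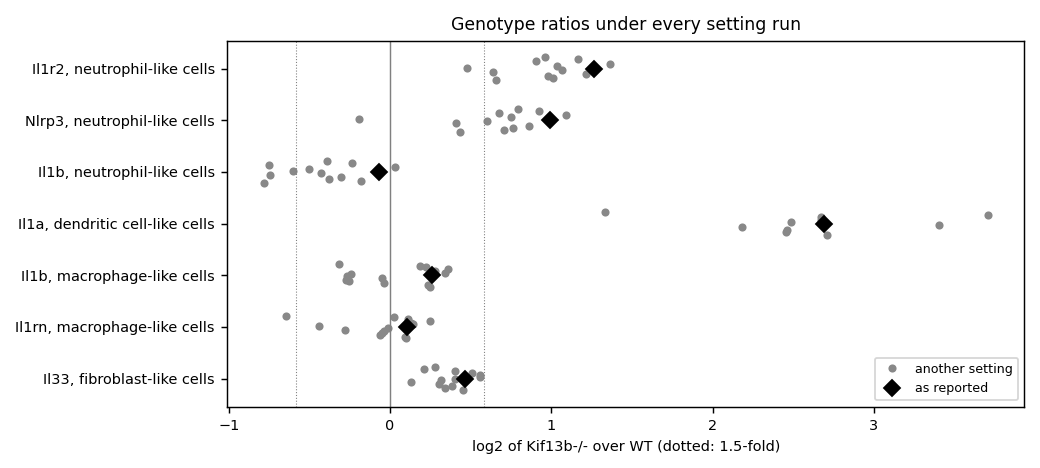
Log2 of the Kif13b-/- over the WT level for 7 member and class pairs, with the reported value as a black diamond and each other setting as a grey point, and dotted lines at 1.5-fold. The ratios of Il1r2 in neutrophil-like cells and Il1a in dendritic cell-like cells are above 0 in every setting that gave the class, and those of Il1b and Il1rn in macrophage-like cells fall on both sides of 0.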

How the data were processed

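The deposited files are 1 gene-by-barcode matrix of UMI counts per library, made by the authors with Cell Ranger 8.0.1 per the file headers on mm10 per the submitters' processing notes. Their annotation was not stated, so gene positions are from GENCODE M21. No column was left unused (0). Nothing in the labels says whether a library is 1 animal. The 10 members, 6 pathway lists (83 genes with the members) and markers of 23 cell types were chosen with earlier results of these data known.

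A barcode was kept from 500 UMIs and 300 genes upward and up to 20% mitochondrial UMIs (7315 Kif13b-/-, 19832 WT). Scrublet failed to set a usable threshold (0 doublets called), so the highest scores were removed at 0.8% per 1000 barcodes, 428 Kif13b-/- (5.85%) and 3146 WT (15.9%). In scanpy 1.11.5, counts were scaled to 10000, logged, reduced to 2000 variable genes (library as batch key, members and pathway genes left out), 30 components and 15 neighbours, and clustered by Leiden at resolution 1, with no integration. Both files hold more barcodes than the 6000 cells loaded, so some barcodes are not whole single cells, and 52 barcode sequences occur in both files.

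A cluster of at least 30 barcodes was named where at least 3 and at least 50% of a class's markers were raised 2-fold and detected in 10% of barcodes, with a mean log2 fold 1 above the next class that passed. Clusters with more markers of another class among their top 10 genes, or far shallower than their libraries, stayed unnamed. The naming rule was tuned with the clusters in view. T cell-like, adipocyte-like and lymphatic endothelial-like cells, with under 50 Kif13b-/- barcodes, were not compared.

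Per class and library, UMIs were summed and divided by the class total (CPM). Log2 ratios used a prior count of 0.5, and genes with 50 or more UMIs in the libraries together were called at a 1.5-fold ratio. Intervals (95%) are exact for Poisson counts and for ratios of 2 counts, and cover counting error only. A 3' tag library counts a transcript once whatever its length. Macrophage-like barcodes were clustered again at resolution 0.5. Other filters, resolutions, scalings and class definitions were tried, and their effect is given at the end. A further setting left out the barcodes richer in RNA of other cells. These were above their class median for the share of smooth muscle, fibroblast, chondrocyte, endothelial and adipocyte markers, a class's own list excepted. Immune markers were not used in it. The ratio and interval code was checked on simulated counts. The members were named whatever their values. Pathway genes were named if 1.5-fold different in macrophage-like cells (at most 4 per list, most UMIs first) or highest of their list, with the 3 genes most like each member among those of at least 50 CPM in some class. The genes most like Il1rap are not reported here.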

Additional observations from a re-analysis of the deposited data

Results flagged for a closer look

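Il1rn differed between classes in the direction of its genotype ratio. Its log2 ratio of Kif13b-/- over WT was 0.61 in neutrophil-like cells and 0.80 in endothelial-like cells, but -1.50 in chondrocyte-like cells. Without cluster 31, of 38 Kif13b-/- and 0 WT barcodes, the endothelial-like ratio was -0.08. That cluster was named endothelial-like, but its fibroblast markers were at 11584 CPM and its endothelial markers at 1337 CPM. Il1r1 had a log2 ratio of -0.61 in macrophage-like cells and 1.00 in Schwann or glial-like cells, the second from 30 and 27 UMIs. Il33 had a log2 ratio of -0.79 in macrophage-like cells and 0.62 in chondrocyte-like cells, both at levels under 13 CPM. None of these differences between classes was tested.

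The barcodes that the filters and the doublet removal left out, 879 Kif13b-/- and 4440 WT, also held myeloid members. Il1b was at 317 CPM in the left-out Kif13b-/- barcodes and 215 CPM in the left-out WT barcodes, and Nlrp3 at 96.9 and 66.9 CPM. Il1rn was at 79.8 CPM in Kif13b-/- and 53.6 CPM in WT, Il1a at 54.3 and 26.1 CPM, and Il1r2 at 20.4 and 13.9 CPM.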

How the results depend on the processing

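No paired analysis was possible because each genotype has 1 library, and for the same reason no replicate could be left out. The cause of the changes below was not tested. The richer barcodes are those above their class median for markers of wall and fat cells, and immune markers were not used to find them. The settings on single clusters (2, 19, 23, 31 and 34) were added after seeing the data.

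In macrophage-like cells the Il1b log2 ratio was -0.037 at most 10% mitochondrial UMIs, -0.25 at 2000 and -0.27 at 5000 UMIs or more, -0.047 at resolution 0.5, -0.26 at resolution 2 and -0.24 by marker score. It was 0.34 with each barcode weighing the same, 0.36 thinned to 1000 UMIs, 0.22 without barcodes richer in RNA of other cells, 0.18 in cluster 19 alone and -0.32 with cluster 23 counted. Il1rn in the same order was -0.064, -0.048, -0.040, -0.28, -0.010 and -0.44 in the first 6, then 0.25 thinned, 0.027 in cluster 19 and -0.65 with cluster 23. Il33 turned positive with the members among the clustering genes (0.17), at 10% mitochondrial UMIs (1.45), at 2000 (1.10) and 5000 UMIs (0.14), at resolution 0.5 (0.93) and 2 (0.78), by marker score (1.08) and with cluster 23 (0.94). The number of members past 1.5-fold was 0 with the members among the clustering genes, 1 with doublets kept, at 5000 UMIs, at resolution 2 and in cluster 19, 4 by marker score and 5 with cluster 23. The share of all genes past that line was not computed in these settings, so these counts say nothing particular to the members. Il1rn per Il1b in Kif13b-/- was 0.265 with the members among the clustering genes, 0.31 at 10% mitochondrial UMIs, 0.349 at 2000 UMIs, 0.353 at 5000 UMIs, 0.258 at resolution 0.5, 0.373 at resolution 2, 0.292 by marker score, 0.263 with equal weights, 0.26 thinned, 0.287 without richer barcodes and 0.243 with cluster 23. In WT it was 0.294 with the members among the clustering genes and with doublets kept, 0.336 by marker score and 0.281 thinned.

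In neutrophil-like cells Il1b was -0.78 with the members among the clustering genes, -0.38 at 10% mitochondrial UMIs, -0.30 at 2000 UMIs, -0.75 at resolution 0.5, -0.43 at resolution 2, -0.60 by marker score, -0.50 with equal weights, -0.75 thinned, -0.23 without richer barcodes and -0.39 in cluster 34. Il1rn was -0.0019 at resolution 0.5 and -0.20 by marker score, and Nlrp3 was -0.19 by marker score. Il1r2 per Il1r1 in Kif13b-/- was 103 with the members among the clustering genes, at resolution 0.5 and without richer barcodes, 89 at 10% mitochondrial UMIs, 4.14 by marker score and 94 in cluster 34. In WT it was 4.22 thinned and 4.37 without richer barcodes, with a value in 7 settings. Il1r2 itself was higher in Kif13b-/- in 12 of 12 settings, 11 of them past 1.5-fold.

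Elsewhere, Il1b in smooth muscle-like cells was -0.24 at 5000 UMIs and -0.12 by marker score. Without richer barcodes, endothelial-like Il1b was -0.38 and Il1rn -0.79, and Il1rn was -0.080 without cluster 31. Among chondrocyte-like cells Il1r2 was -1.12 at 2000 UMIs, Il1rap 0.22 thinned, and Il33 -1.54 with equal weights and -1.21 thinned. Schwann or glial-like Il1r1 was -0.14 by marker score. Fibroblast-like Il33 was 0.34 with doublets kept, 0.30 at 2000 UMIs, 0.13 at 5000 UMIs, 0.32 at resolution 0.5, 0.21 without richer barcodes and 0.28 in cluster 2. A neutrophil-like class was not obtained at 5000 UMIs, and a dendritic cell-like class was not obtained at 10% mitochondrial UMIs or at resolution 0.5. Depth limits Casp1, Il18 and Il33 outside their main classes, and most members in pericyte-like, B cell-like and Schwann or glial-like cells.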

Other observations

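The unnamed clusters held member RNA that no class value includes. Cluster 23, with 1288 Kif13b-/- and 6 WT barcodes and 15.3% mitochondrial UMIs, had Il1b at 575 CPM, Il1rn at 98.0 CPM, Nlrp3 at 86.2 CPM and Il1r2 at 36.8 CPM in Kif13b-/-. It carried macrophage markers at 2530 CPM and smooth muscle markers at 7232 CPM together in Kif13b-/-. Cluster 16, led by T and NK cell genes such as Icos and Gzma, had Il1b at 369 CPM in Kif13b-/- and 11.7 CPM in WT, and macrophage markers at 625 and 44.3 CPM. Whether the Il1b of these clusters came from other cells was not tested.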
